A study of Lactuca sativa with 9 samples.

Results

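The genes described here are 7 lettuce genes of the NAC family of transcription factors, measured by RNA-seq in leaves of 3 romaine genotypes that differ in shelf-life. They were taken by identifier out of 38910 genes counted in each library. NAC83 (Lsat_1_v5_gn_3_31741), the NAM gene (Lsat_1_v5_gn_4_1821), NAC28 (Lsat_1_v5_gn_1_18141) and an unnumbered NAC gene (Lsat_1_v5_gn_9_95120) differed between 60184 (SSL) and ‘Okeechobee’ (LSL) when the study compared them. KIRA (Lsat_1_v5_gn_9_10341), NAC17 (Lsat_1_v5_gn_6_99960) and NAC90 (Lsat_1_v5_gn_6_38501) are the lettuce matches of Arabidopsis thaliana genes known for a role in senescence. In each identifier the digit after “gn” is the chromosome of the v5 lettuce genome, so the 7 genes lie on chromosomes 1, 3, 4, 6 and 9. Because counts of ‘Okeechobee’ (LSL) against 60184 (SSL) chose 4 of the members, that comparison is given for the 7 genes as a description, without a test.

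The experimental breeding line 60184 stood for short shelf-life (SSL), the cultivar ‘Manatee’ for intermediate (ISL) and the cultivar ‘Okeechobee’ for long shelf-life (LSL). All plants were raised in pots in a growth chamber kept at 22 °C under 16 h of light a day, and RNA was taken from mature leaves before any storage. Each genotype was represented by 1 line and 3 libraries, so a difference between genotypes is one between these 3 lines. The study sequenced the leaves to look for preharvest markers of postharvest shelf-life.

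NAC proteins carry a conserved DNA-binding NAC domain at the amino end and a variable regulatory region at the other. Plants have many of them, and in leaves they are known for setting the onset and pace of senescence and for responses to drought, abscisic acid and other stress. Some promote senescence and others hold it back, so the direction in which a NAC gene differs has no single reading.

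The family held genes with very different patterns over the genotypes. NAC83 and NAC28 were lowest in 60184 (SSL), intermediate in ‘Manatee’ (ISL) and highest in ‘Okeechobee’ (LSL), with no library out of order. The NAM gene ran the other way. The unnumbered NAC gene had few reads outside ‘Okeechobee’ (LSL), and KIRA was set apart in 60184 (SSL). NAC17 was highest in ‘Manatee’ (ISL), and NAC90 overlapped in all 3 genotypes.

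For NAC83 and the NAM gene the study designed RT-qPCR primers, which are shown because they mark the transcripts whose levels ran in opposite directions; both pairs are written 5′ to 3′ in lower case throughout. They lie in genes on chromosomes 3 and 4.
NAC83 forward: gtgttctaccgaggcaaag
NAC83 reverse: ctcaactctcacatcgttctc
NAM gene forward: gaaccaggaagaagagaaagag
NAM gene reverse: gtctcacggcaaccataaa

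**Figure D1:**
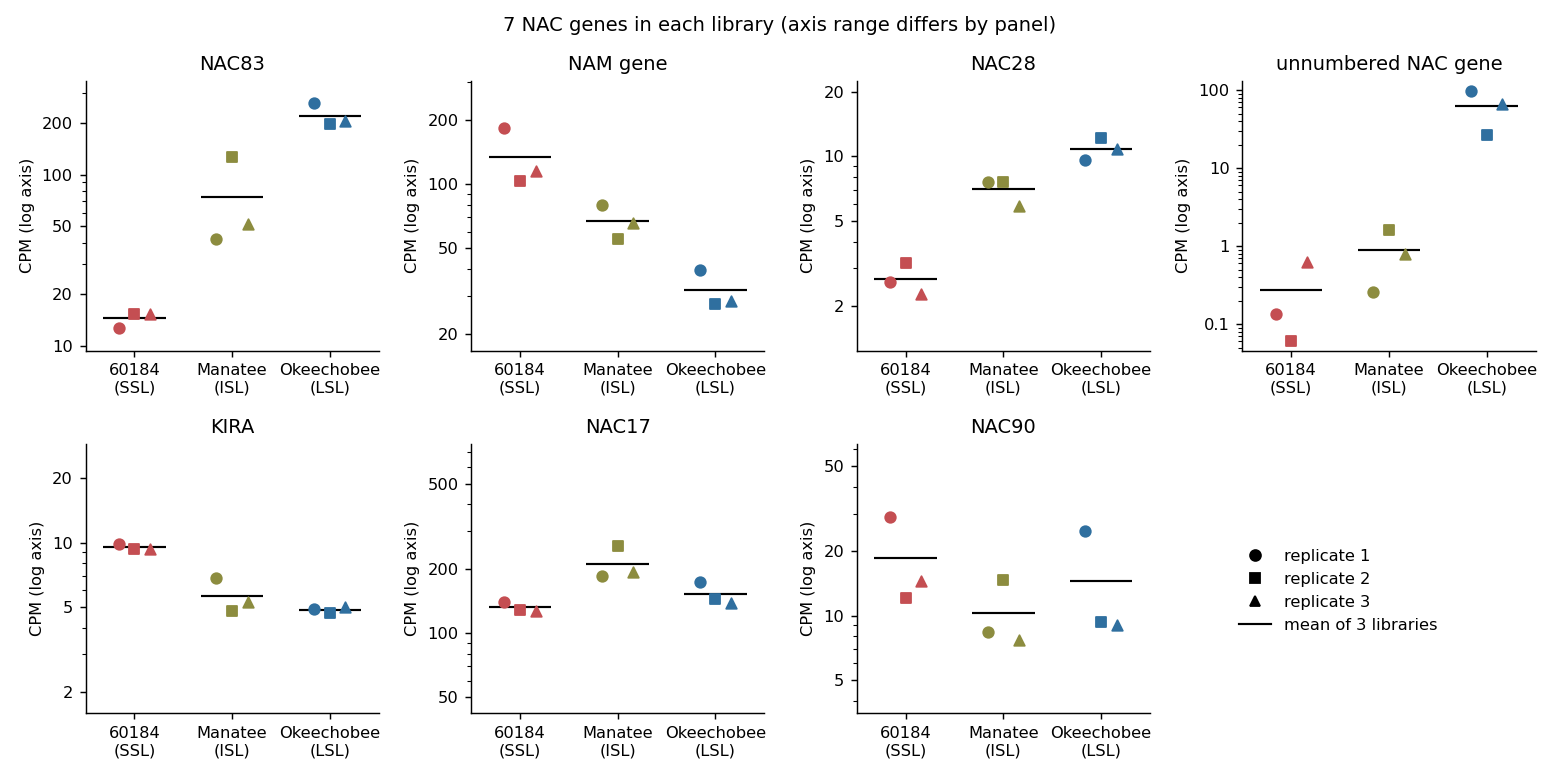
Level of each of the 7 NAC genes in CPM, the reads of a gene scaled to the size of its library (log axis), in the 3 libraries of each genotype; symbols mark the replicate and horizontal lines the mean. NAC83 rises from 12.6 to 15.4 CPM in 60184 (SSL) to at least 197.8 CPM in ‘Okeechobee’ (LSL), while the NAM gene falls from at least 103.2 CPM to at most 39.5 CPM.

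The libraries held 24108451 to 32840811 reads in genes. Levels are CPM, the reads of a gene relative to all gene reads of its library, scaled by the TMM method over the 9 libraries, and they compare one gene between libraries but not one gene with another, since gene lengths were not used here. Differences are log2 fold changes with their standard error (SE) from the quasi-likelihood F test of edgeR, run for each pair of genotypes on 6 libraries and called at a Benjamini-Hochberg adjusted p under 0.05 over all genes tested. Of the 9 libraries, ‘Manatee’ (ISL) replicate 2 lay farthest from its own replicates, with a mean root mean square difference of 0.79 on the log2 CPM scale against 0.54 to 0.78 for the others. Among 27 genes described as light-harvesting, Rubisco or related proteins, which mark photosynthetic leaf tissue, the summed level was 18274 to 45258 CPM in 60184 (SSL), 5271 to 10802 in ‘Manatee’ (ISL) and 4074 to 7879 in ‘Okeechobee’ (LSL), with 1 of the 27 at 0 in all 3 libraries of ‘Manatee’ (ISL) and 1 in those of ‘Okeechobee’ (LSL). Summed levels were 126 to 148, 157 to 212 and 116 to 168 CPM for 12 vascular genes, and 2496 to 3778, 1473 to 1575 and 2223 to 2342 CPM for 23 guard cell and epidermis genes, in the same order. These genes were picked by words in the study’s descriptions, most of which cover genes selected on ‘Okeechobee’ (LSL) and 60184 (SSL). Their levels are therefore no independent evidence on leaf composition. A summed level can also mask members of a list that moved apart. From 60184 (SSL) to ‘Okeechobee’ (LSL), 13 of the 23 guard cell and epidermis genes increased past the threshold and 5 decreased. Over all 22113 genes tested, 16.2% increased and 15.3% decreased. The median log2 fold change of the 23 guard cell and epidermis genes was 1.16, although their sum was lower. Of the 11 vascular genes tested, 5 increased and 5 decreased, while all 27 photosynthetic genes decreased. The part of leaf composition in the results was not tested, and in bulk RNA fewer cells of a type and less RNA per cell cannot be told apart.

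NAC83 showed the clearest stepwise rise. Its best match in A. thaliana is NAC83, also called VNI2, which represses xylem vessel formation and is known to delay leaf ageing. In 60184 (SSL) the level of NAC83 was 12.6, 15.4 and 15.3 CPM in replicates 1, 2 and 3. It was 41.9, 127.4 and 51.5 CPM in ‘Manatee’ (ISL) and 260.5, 197.8 and 204.6 CPM in ‘Okeechobee’ (LSL). No library of one genotype reached the range of the next, although ‘Manatee’ (ISL) replicate 2 stood well above the other ‘Manatee’ (ISL) libraries. The means were 14.4 ± 1.58, 73.6 ± 46.8 and 221.0 ± 34.4 CPM (SD, n = 3 each).

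From 60184 (SSL) to ‘Manatee’ (ISL), NAC83 rose 5.14-fold (log2 fold change 2.36, SE 0.42, adjusted p = 0.011, edgeR quasi-likelihood). With any one 60184 (SSL) library left out, the log2 fold change of NAC83 was 2.25 to 2.42 and the adjusted p (edgeR) was 0.064 without replicate 1, 0.053 without replicate 2 and 0.052 without replicate 3. Without ‘Manatee’ (ISL) replicate 2 the call on NAC83 was kept at a lower log2 fold change of 1.70 (SE 0.15, adjusted p = 0.00016, edgeR). Between ‘Manatee’ (ISL) and ‘Okeechobee’ (LSL) the log2 fold change of NAC83 was 1.61 (SE 0.42, adjusted p = 0.064, edgeR quasi-likelihood), which did not pass. That result depended on 1 library and on the processing. Without ‘Manatee’ (ISL) replicate 2 the log2 fold change was 2.24 (adjusted p = 0.0040, edgeR). With all libraries kept it passed with DESeq2 (adjusted p = 0.0028). It also passed with scaling by library size alone (adjusted p = 0.033, edgeR) and in 1 model of all 9 libraries (adjusted p = 0.022, edgeR). Between 60184 (SSL) and ‘Okeechobee’ (LSL), the contrast that chose the gene, the log2 fold change was 3.94 (SE 0.18).

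The NAM gene was the mirror image of NAC83, although both have NAC83 as their best match in A. thaliana. In 60184 (SSL) the NAM gene was at 182.4, 103.2 and 115.5 CPM. It was at 80.1, 55.4 and 66.1 CPM in ‘Manatee’ (ISL) and at 39.5, 27.7 and 28.4 CPM in ‘Okeechobee’ (LSL). The 3 ranges did not overlap, and replicate 1 was the highest library in every genotype. The means were 133.7 ± 42.7, 67.2 ± 12.3 and 31.9 ± 6.66 CPM (SD, n = 3 each).

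Both tested steps of the NAM gene passed, each about the same size. It fell by 0.98 on the log2 scale from 60184 (SSL) to ‘Manatee’ (ISL) (SE 0.23, adjusted p = 0.027, edgeR quasi-likelihood). It fell by 1.05 from ‘Manatee’ (ISL) to ‘Okeechobee’ (LSL) (SE 0.20, adjusted p = 0.025, edgeR quasi-likelihood). The first call was lost without 60184 (SSL) replicate 1, 60184 (SSL) replicate 3 or ‘Manatee’ (ISL) replicate 3 (adjusted p = 0.066, 0.065 and 0.074, edgeR). The second was lost without ‘Manatee’ (ISL) replicate 1 or 3 or ‘Okeechobee’ (LSL) replicate 2 or 3 (adjusted p = 0.094, 0.099, 0.11 and 0.082, edgeR). Over the whole range, ‘Okeechobee’ (LSL) against 60184 (SSL), the log2 fold change was -2.07 (SE 0.26).

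Because both genes match the same Arabidopsis gene, their reads were also set against each other within each library, a ratio that no scaling between libraries can change. NAC83 had 0.069, 0.149 and 0.133 reads for each read of the NAM gene in the 60184 (SSL) libraries. In ‘Manatee’ (ISL) the read ratio was 0.523, 2.30 and 0.779, and in ‘Okeechobee’ (LSL) it was 6.59, 7.15 and 7.21. The NAM gene thus had the more reads in every 60184 (SSL) library and NAC83 in every ‘Okeechobee’ (LSL) library, while in ‘Manatee’ (ISL) only replicate 2 had more NAC83 reads. Gene length enters the ratio equally in every library, so the ratio compares libraries and not the abundance of the transcripts.

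**Figure D2:**
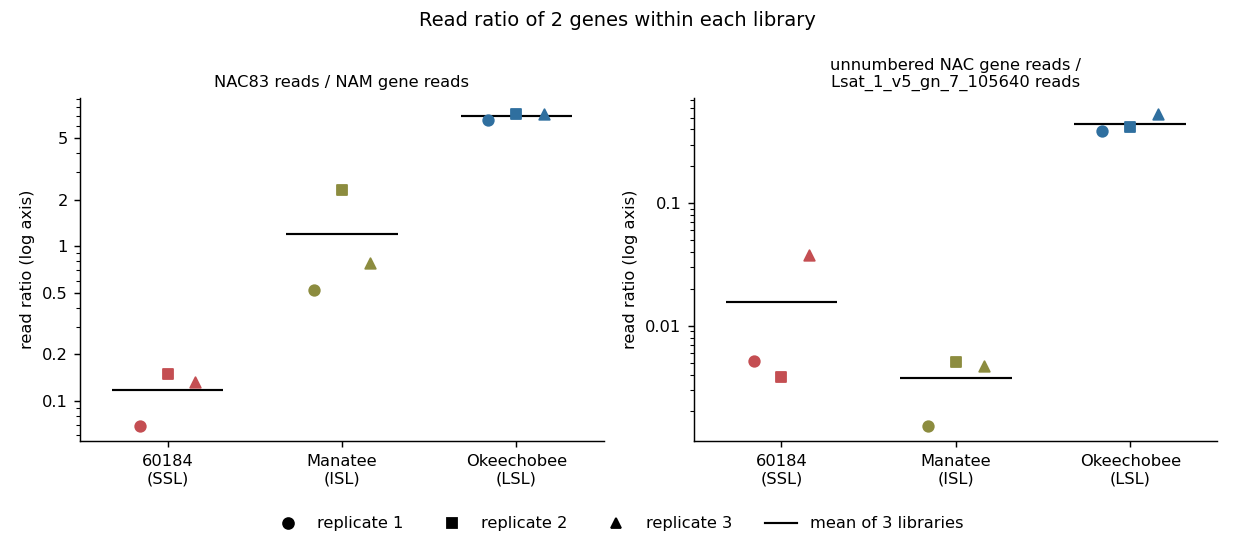
Ratio of the reads of NAC83 to those of the NAM gene (left) and of the unnumbered NAC gene to those of Lsat_1_v5_gn_7_105640 (right) within each library, on log axes; lines are means of the 3 libraries. The left ratio goes from at most 0.149 in 60184 (SSL) to at least 6.59 in ‘Okeechobee’ (LSL), and the right ratio is at least 0.385 only in ‘Okeechobee’ (LSL).

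NAC28 rose in the same order as NAC83, at a much smaller number of reads. The 60184 (SSL) libraries were at 2.60, 3.18 and 2.28 CPM. The ‘Manatee’ (ISL) libraries were at 7.63, 7.56 and 5.89 CPM and the ‘Okeechobee’ (LSL) libraries at 9.64, 12.2 and 10.9 CPM. The genotypes did not overlap, and replicates lay close together, with a coefficient of variation of 11.6% to 16.8%. NAC28 rose 2.63-fold from 60184 (SSL) to ‘Manatee’ (ISL) (log2 fold change 1.40, SE 0.23, adjusted p = 0.0072, edgeR quasi-likelihood). NAC28 was the only member called in that comparison whose call was kept under each of the 14 alternatives tried. The further step to ‘Okeechobee’ (LSL) was 0.66 (SE 0.19, adjusted p = 0.076, edgeR quasi-likelihood) and passed only with DESeq2 (adjusted p = 0.025). For ‘Okeechobee’ (LSL) against 60184 (SSL) the log2 fold change was 2.02 (SE 0.20).

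Stepwise order without overlap was uncommon among the 22658 genes with levels in the 9 libraries. A rise of the kind seen in NAC83 and NAC28 was found in 2.14% of them and a fall like that of the NAM gene in 2.56%. These 3 genes were chosen for differing between the outer genotypes, so their order is given as a description.

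The unnumbered NAC gene had nearly all its reads in 1 genotype. Its best match in A. thaliana is RD26, a NAC gene induced by dehydration and abscisic acid, and its protein is annotated by NCBI as JA2L, known in tomato for a role in stomatal movement. The unnumbered NAC gene had 4, 2 and 21 reads in the 60184 (SSL) libraries and 8, 45 and 25 in ‘Manatee’ (ISL). In ‘Okeechobee’ (LSL) it had 2930, 772 and 1687 reads, or 97.1, 26.9 and 65.8 CPM. In the other libraries its level was at most 1.59 CPM, with 60184 (SSL) and ‘Manatee’ (ISL) overlapping. A pattern in which the 3 ‘Okeechobee’ (LSL) libraries lay above all the others was found in 9.8% of genes.

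The rise of the unnumbered NAC gene from ‘Manatee’ (ISL) to ‘Okeechobee’ (LSL) was the largest difference of any member in the tested comparisons, 73.4-fold (log2 fold change 6.20, SE 0.74, adjusted p = 0.0048, edgeR quasi-likelihood). It passed with each library left out in turn, at log2 fold changes of 5.73 to 6.89, the highest without ‘Manatee’ (ISL) replicate 2. Between 60184 (SSL) and ‘Manatee’ (ISL) the log2 fold change was 1.67 (SE 0.92, adjusted p = 0.23, edgeR quasi-likelihood). The description of ‘Okeechobee’ (LSL) against 60184 (SSL) was a log2 fold change of 7.81 (SE 0.77), or 9.30 without 60184 (SSL) replicate 3, which held 21 of the 27 reads in that genotype. Whether a gene with so few reads was little transcribed, absent from a genotype or too diverged to map to the reference cannot be told apart.

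A second lettuce gene, Lsat_1_v5_gn_7_105640 on chromosome 7, also has RD26 as its best match and the JA2L annotation, and it behaved differently. Its level was 26.0, 16.2 and 16.4 CPM in 60184 (SSL), 167.4, 311.6 and 170.8 CPM in ‘Manatee’ (ISL) and 252.1, 64.5 and 122.1 CPM in ‘Okeechobee’ (LSL). It thus rose in ‘Manatee’ (ISL), where the unnumbered NAC gene stayed low (log2 fold change 3.49, SE 0.33, adjusted p = 0.00077, edgeR quasi-likelihood). ‘Okeechobee’ (LSL) did not pass against ‘Manatee’ (ISL) (log2 fold change -0.54, SE 0.50, adjusted p = 0.54, edgeR quasi-likelihood). The unnumbered NAC gene had 0.0038 to 0.038 reads for each read of Lsat_1_v5_gn_7_105640 in 60184 (SSL), 0.0015 to 0.0051 in ‘Manatee’ (ISL) and 0.385 to 0.539 in ‘Okeechobee’ (LSL). If the 2 genes share near-identical stretches, the counting of unique reads could have removed reads from both.

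KIRA was set apart in 60184 (SSL) alone. In A. thaliana the gene of this name, also written KIR1, promotes cell death in the ageing stigma. The level of KIRA was 9.86, 9.37 and 9.35 CPM in 60184 (SSL), 6.83, 4.77 and 5.28 CPM in ‘Manatee’ (ISL) and 4.90, 4.67 and 5.0 CPM in ‘Okeechobee’ (LSL). Every 60184 (SSL) library was above every other library, a pattern found in 13.8% of genes, and the other 2 genotypes overlapped. The coefficient of variation of KIRA was 3.01% in 60184 (SSL) and 3.42% in ‘Okeechobee’ (LSL), the lowest among the members, against 19.1% in ‘Manatee’ (ISL).

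KIRA fell by 0.75 on the log2 scale from 60184 (SSL) to ‘Manatee’ (ISL) (SE 0.18, adjusted p = 0.030, edgeR quasi-likelihood). Without 60184 (SSL) replicate 1, 2 or 3 the adjusted p of KIRA (edgeR) was 0.089, 0.11 and 0.093, without ‘Manatee’ (ISL) replicate 3 it was 0.084, and with scaling by library size alone it was 0.057. Between ‘Manatee’ (ISL) and ‘Okeechobee’ (LSL) the log2 fold change was -0.19 (SE 0.22, adjusted p = 0.64, edgeR quasi-likelihood). ‘Okeechobee’ (LSL) against 60184 (SSL) gave -0.97 (SE 0.15) as a description.

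NAC17 was the member with its peak in ‘Manatee’ (ISL). Its Arabidopsis counterpart is a membrane-bound NAC protein that carries stress signals from mitochondria to the nucleus, and together with NAC90 it is known there for holding back leaf senescence. NAC17 was at 140.1, 128.5 and 126.4 CPM in 60184 (SSL), at 185.6, 255.7 and 192.6 CPM in ‘Manatee’ (ISL) and at 173.3, 144.6 and 138.7 CPM in ‘Okeechobee’ (LSL). All ‘Manatee’ (ISL) libraries were above the rest, as in 6.21% of genes, and ‘Okeechobee’ (LSL) overlapped 60184 (SSL). NAC17 rose 1.62-fold from 60184 (SSL) to ‘Manatee’ (ISL) (log2 fold change 0.69, SE 0.16, adjusted p = 0.026, edgeR quasi-likelihood). That call on NAC17 was lost without 60184 (SSL) replicate 1, 2 or 3 (adjusted p = 0.079, 0.11 and 0.098, edgeR). The difference of ‘Okeechobee’ (LSL) from ‘Manatee’ (ISL) was -0.45 (SE 0.19, adjusted p = 0.19, edgeR quasi-likelihood), and the description against 60184 (SSL) was 0.21 (SE 0.14).

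NAC90 did not separate the genotypes. Its level was 28.9, 12.2 and 14.5 CPM in 60184 (SSL), 8.40, 14.7 and 7.69 CPM in ‘Manatee’ (ISL) and 25.0, 9.35 and 9.06 CPM in ‘Okeechobee’ (LSL). One library stood above the other 2 in each genotype, and all 3 ranges overlapped. The log2 fold change of NAC90 was -0.83 for ‘Manatee’ (ISL) against 60184 (SSL) (SE 0.38, adjusted p = 0.15, edgeR quasi-likelihood). It was 0.52 for ‘Okeechobee’ (LSL) against ‘Manatee’ (ISL) (SE 0.46, adjusted p = 0.52, edgeR quasi-likelihood) and -0.15 without ‘Okeechobee’ (LSL) replicate 1. For ‘Okeechobee’ (LSL) against 60184 (SSL) it was -0.35 (SE 0.48), and its sign turned to 0.12 without 60184 (SSL) replicate 1.

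**Figure D3:**
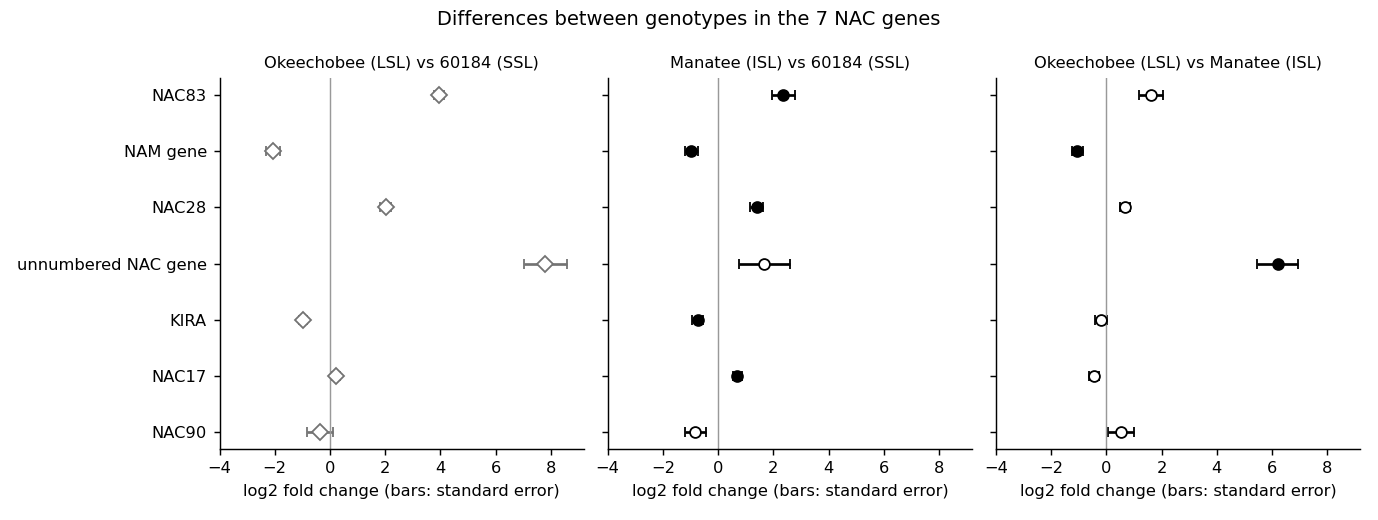
Log2 fold change of the 7 NAC genes in the 3 comparisons, with bars for the standard error; filled circles passed at an adjusted p under 0.05, open circles did not, and grey diamonds mark the comparison that is given without a test. The unnumbered NAC gene reaches 6.20 in ‘Okeechobee’ (LSL) against ‘Manatee’ (ISL), where only it and the NAM gene passed.

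Counted over the members, 5 of 7 passed between ‘Manatee’ (ISL) and 60184 (SSL), where 18.9% of 22062 genes did. NAC83, NAC28 and NAC17 rose, as did 10.3% of genes, and the NAM gene and KIRA fell, as did 8.6%. The count rested on all 3 libraries of 60184 (SSL): without replicate 1, 2 or 3 it was 1, 2 and 1 of 7, where 6.87%, 5.72% and 6.45% of genes were called. Without ‘Manatee’ (ISL) replicate 3 it was 3 of 7, where 12.3% of genes were called. Between ‘Okeechobee’ (LSL) and ‘Manatee’ (ISL), 2 of 7 passed, the unnumbered NAC gene upwards and the NAM gene downwards, where 8.28% of 21937 genes did, 4.54% upwards and 3.74% downwards. The count was 1 of 7 without ‘Manatee’ (ISL) replicate 1 or 3, where 2.40% and 1.999% of genes were called. It was also 1 of 7 without ‘Okeechobee’ (LSL) replicate 2 or 3, where 2.59% and 4.21% of genes were called. Without ‘Manatee’ (ISL) replicate 2 it was 3 of 7, where 9.96% of genes were called. DESeq2 called 4 of 7, and 16.7% of all genes. In the comparison of ‘Okeechobee’ (LSL) with 60184 (SSL), which chose most of the members, 5 of 7 were past the threshold where 31.5% of 22113 genes were, and nothing is read from that count. The comparisons with ‘Manatee’ (ISL) use the 60184 (SSL) or the ‘Okeechobee’ (LSL) libraries again, so they do not stand apart from the choice of the genes.

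The ‘Manatee’ (ISL) libraries also disagreed among themselves in one recurrent way. Replicate 2 had the highest ‘Manatee’ (ISL) level of NAC83, the unnumbered NAC gene, NAC17 and NAC90, and the lowest of the NAM gene and KIRA. The SD in ‘Manatee’ (ISL) was 63.7% of the mean for NAC83 and 18.3% for NAC17. In ‘Okeechobee’ (LSL), replicate 1 was the highest for the NAM gene, NAC83, the unnumbered NAC gene, NAC17 and NAC90 and the lowest for NAC28. The part of library quality in this was not tested, but reads outside genes made up 11.05% and 10.1% of the counted total in ‘Okeechobee’ (LSL) replicates 1 and 3 and 5.04% to 7.27% elsewhere.

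The members were next set among the other NAC genes with a description. The study’s tables describe 3733 of the genes counted. The list holds 20 genes, which carry a NAC description in these tables or are members, described or not. It thus adds 13 genes to the members. Most of these tables were selected by the study on ‘Okeechobee’ (LSL) and 60184 (SSL), so the list is not a census of the family and its counts are no independent evidence. All 20 passed the filter on low counts in each comparison.

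Against 60184 (SSL), NAC genes were mostly higher in ‘Manatee’ (ISL). Of the 20 genes, 13 rose, 2 fell and 5 did not pass, where 10.3% of all genes rose and 8.6% fell. The median log2 fold change was 1.32 against -0.01 over all genes tested. The 13 genes that are no members divided into 10 that rose and 3 that did not pass. These counts depended on the number of 60184 (SSL) libraries: without replicate 1, 2 or 3 of 60184 (SSL), 6, 7 and 6 of the 20 passed, while all genes called went from 4176 to 1481, 1232 and 1389. Between ‘Okeechobee’ (LSL) and ‘Manatee’ (ISL), 1 gene rose, 3 fell and 16 did not pass, where 8.28% of all genes were called, with a median log2 fold change of -0.32 against 0.02 over all genes. For ‘Okeechobee’ (LSL) against 60184 (SSL), 10 were higher, 5 lower and 5 not past the threshold, where 31.5% of all genes were past it, which describes how the list was made.

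**Figure D4:**
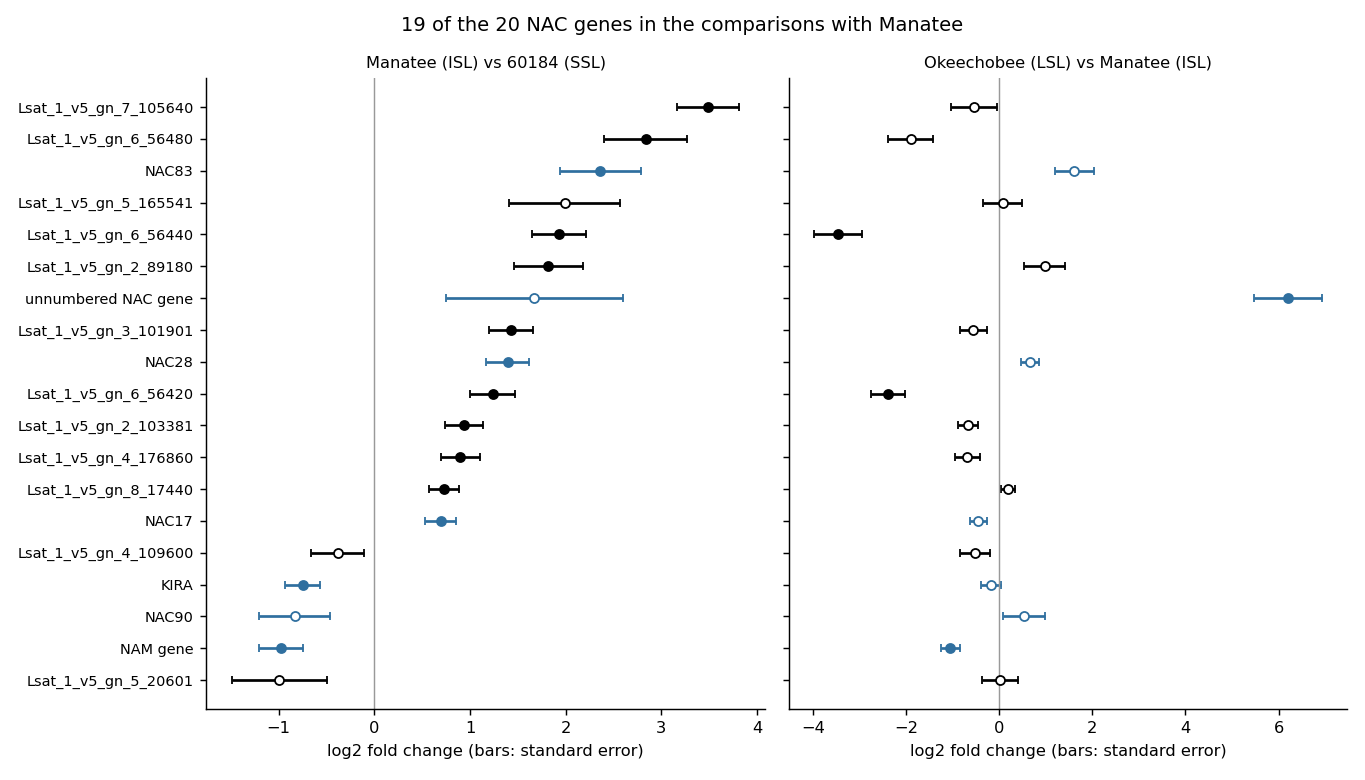
Log2 fold change and standard error of 19 of the 20 NAC genes in the comparisons with ‘Manatee’ (ISL), ordered by the left panel; members are blue, and filled points passed at an adjusted p under 0.05. Lsat_1_v5_gn_7_30761, which had 0 reads in 60184 (SSL), is left out. Most points lie right of 0 on the left and few points on the right are filled.

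A group of 3 NAC genes with close id numbers on chromosome 6 (Lsat_1_v5_gn_6_56420, Lsat_1_v5_gn_6_56440 and Lsat_1_v5_gn_6_56480), all described as NAC domain-containing protein 2, was highest in ‘Manatee’ (ISL). Lsat_1_v5_gn_6_56420 was at 108.9, 84.3 and 98.2 CPM in 60184 (SSL), 175.8, 310.0 and 193.4 CPM in ‘Manatee’ (ISL) and 54.7, 24.2 and 47.7 CPM in ‘Okeechobee’ (LSL). Lsat_1_v5_gn_6_56440 was at 61.8, 60.7 and 65.7 CPM, then 179.0, 353.5 and 177.9 CPM, and then 27.1, 8.82 and 27.3 CPM in the same order. Lsat_1_v5_gn_6_56480 was at 53.1, 39.8 and 53.9 CPM, then 210.8, 600.9 and 226.1 CPM, and then 122.3, 57.7 and 91.3 CPM. No genotype overlapped another in any of the 3 genes, but the first 2 had their lowest level in ‘Okeechobee’ (LSL) and the last in 60184 (SSL). All ‘Manatee’ (ISL) libraries lay above the rest in 6.21% of genes, and the share of genes with these full orders was not counted. The 3 genes were named by their id numbers and by small p in these same comparisons, so their order is given as a description.

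From 60184 (SSL) to ‘Manatee’ (ISL) all 3 rose, by log2 fold changes of 1.24 (SE 0.24), 1.93 (SE 0.29) and 2.84 (SE 0.44) in the order of their id numbers, with adjusted p = 0.013, 0.0052 and 0.0063, edgeR quasi-likelihood. The first of these calls was lost without any one 60184 (SSL) library (adjusted p = 0.055, 0.071 and 0.061 without replicate 1, 2 and 3, edgeR). Without ‘Manatee’ (ISL) replicate 2 the rise of Lsat_1_v5_gn_6_56480 was 2.17 and its call was kept. From ‘Manatee’ (ISL) to ‘Okeechobee’ (LSL), Lsat_1_v5_gn_6_56420 and Lsat_1_v5_gn_6_56440 fell by 2.39 (SE 0.37) and 3.46 (SE 0.52) on the log2 scale (adjusted p = 0.012 and 0.011, edgeR quasi-likelihood). For Lsat_1_v5_gn_6_56480 the value was -1.91 (SE 0.48, adjusted p = 0.058, edgeR quasi-likelihood), and -1.27 without ‘Manatee’ (ISL) replicate 2. This fall passed with DESeq2 (adjusted p = 0.00066), and in edgeR with scaling by library size alone (adjusted p = 0.045). It also passed in 1 model of all 9 libraries (adjusted p = 0.018, edgeR). Under the other alternatives it did not pass, at an adjusted p of up to 0.17 (edgeR). Reads of Lsat_1_v5_gn_6_56480 for each read of Lsat_1_v5_gn_6_56420 numbered 0.472 to 0.549 in 60184 (SSL), 1.17 to 1.94 in ‘Manatee’ (ISL) and 1.91 to 2.38 in ‘Okeechobee’ (LSL). Genes with neighbouring ids and one description may be close copies, among which unique mapping could lose or misplace reads.

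**Figure D5:**
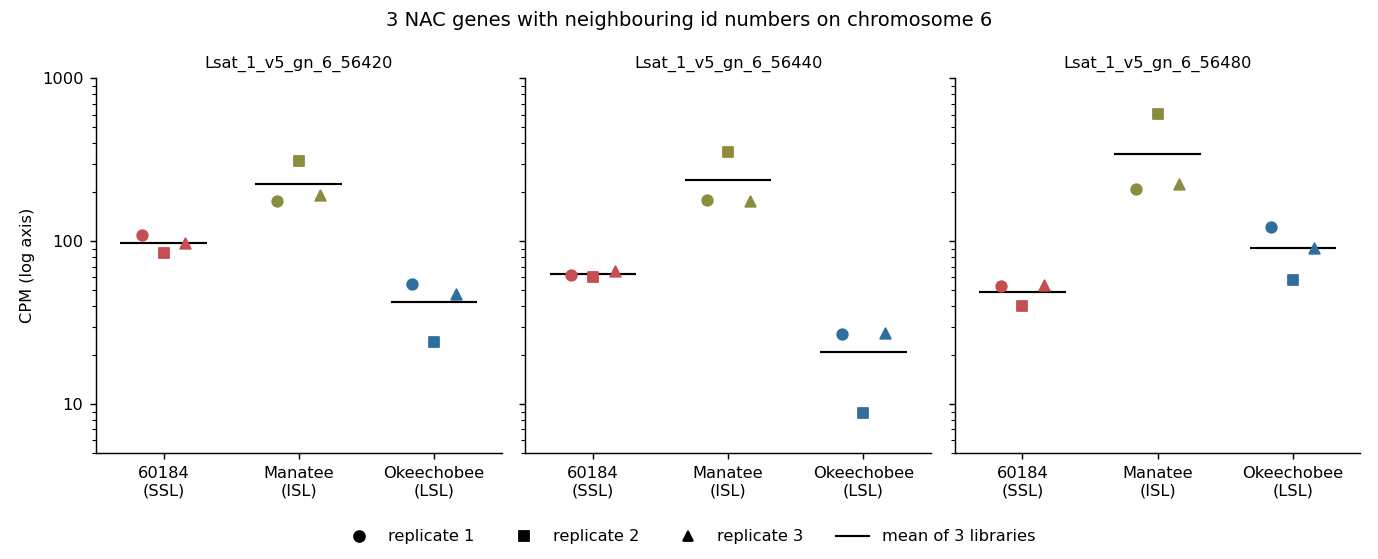
Levels in CPM (log axis) of the 3 NAC genes with close id numbers on chromosome 6 in each library; lines are means of 3 libraries. ‘Manatee’ (ISL) replicate 2 is the highest library in each panel, at 310.0, 353.5 and 600.9 CPM, and ‘Okeechobee’ (LSL) is lowest in the left and middle panels.

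Among the other named NAC genes, Lsat_1_v5_gn_3_101901, also described as NAC domain-containing protein 2, rose from 273.6 to 344.7 CPM in 60184 (SSL) to 636.0 to 1061 CPM in ‘Manatee’ (ISL) (log2 fold change 1.43, SE 0.23, adjusted p = 0.0070, edgeR quasi-likelihood). Lsat_1_v5_gn_2_89180, annotated as the protein FEZ, which in A. thaliana sets the plane of division in root cap stem cells, rose from 0.63 to 0.68 CPM to 1.57 to 3.12 CPM (log2 fold change 1.82, SE 0.36, adjusted p = 0.015, edgeR quasi-likelihood). Lsat_1_v5_gn_8_17440, whose best match is NAC53, a regulator of the response to proteasome stress in A. thaliana, rose by 0.73 on the log2 scale (SE 0.15, adjusted p = 0.019, edgeR quasi-likelihood). Lsat_1_v5_gn_2_103381, with a related description, rose by 0.94 (SE 0.20, adjusted p = 0.019, edgeR quasi-likelihood). Of these 4 genes, only Lsat_1_v5_gn_3_101901 passed without each 60184 (SSL) library in turn; without replicate 1, 2 and 3 the adjusted p (edgeR) was 0.061, 0.066 and 0.061 for Lsat_1_v5_gn_2_89180, 0.072, 0.070 and 0.064 for Lsat_1_v5_gn_8_17440, and 0.071, 0.088 and 0.077 for Lsat_1_v5_gn_2_103381.

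Lsat_1_v5_gn_5_165541, with the best match NAC61 and an NCBI annotation as NAC90, differed from the member NAC90. Its level was 15.2, 4.35 and 7.12 CPM in 60184 (SSL), 26.3, 60.6 and 17.0 CPM in ‘Manatee’ (ISL) and 40.5, 33.8 and 32.6 CPM in ‘Okeechobee’ (LSL), with every 60184 (SSL) library below the others, as in 12.8% of genes. The log2 fold change of Lsat_1_v5_gn_5_165541 in ‘Manatee’ (ISL) against 60184 (SSL) was 1.99 (SE 0.58, adjusted p = 0.052, edgeR quasi-likelihood). This rise passed with DESeq2 (adjusted p = 0.0020), and in edgeR with scaling by library size alone (adjusted p = 0.036). It also passed in 1 model of all 9 libraries and without ‘Manatee’ (ISL) replicate 3 (adjusted p = 0.032 and 0.043, edgeR). Under the other alternatives it did not pass, at an adjusted p of up to 0.15 (edgeR). Lsat_1_v5_gn_7_30761, described as NAC domain containing protein 103 and singled out after its values were seen, had 0 reads in 60184 (SSL), 122 in ‘Manatee’ (ISL) and 99 in ‘Okeechobee’ (LSL). Against a floor of 3 reads over the 60184 (SSL) libraries it was at least 43.2-fold higher in ‘Manatee’ (ISL) and at least 37.6-fold higher in ‘Okeechobee’ (LSL).

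KIRA, NAC17 and NAC90 belong to 10 lettuce matches of Arabidopsis senescence genes that the study examined together. ORE15 had too few counts to be tested, with at most 0.25 CPM in any library. Of the 9 tested, 3 rose and 3 fell in ‘Manatee’ (ISL) against 60184 (SSL), where 10.3% of all genes rose and 8.6% fell. Without 60184 (SSL) replicate 1, 2 or 3, 3, 3 and 2 of the 9 were called, where 6.87%, 5.72% and 6.45% of all genes were. Beside NAC17, the genes that rose were LUX (Lsat_1_v5_gn_9_24661), a component of the evening complex of the circadian clock, and WRKY75 (Lsat_1_v5_gn_4_1201), which promotes leaf senescence in A. thaliana. The log2 fold changes were 1.44 (SE 0.22) for LUX and 1.31 (SE 0.25) for WRKY75, with adjusted p = 0.0057 and 0.013, edgeR quasi-likelihood.

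Beside KIRA, the clock gene PRR5 (Lsat_1_v5_gn_8_4341) and the abscisic acid receptor gene PYL9 (Lsat_1_v5_gn_3_139520) fell. PRR5 fell by 0.94 (SE 0.18) and PYL9 by 1.34 (SE 0.24) on the log2 scale, with adjusted p = 0.012 and 0.011, edgeR quasi-likelihood. WRKY75 did not pass without 60184 (SSL) replicate 1 or 3 (adjusted p = 0.057 and 0.061, edgeR), nor PRR5 without 60184 (SSL) replicate 2 or 3 (adjusted p = 0.051 and 0.056, edgeR) or in 1 model of all 9 libraries (adjusted p = 0.063, edgeR). CRF5 (Lsat_1_v5_gn_2_134301) and ELF3 (Lsat_1_v5_gn_3_25981) had log2 fold changes of -0.03 (SE 0.30) and 0.32 (SE 0.13) and did not pass. Between ‘Okeechobee’ (LSL) and ‘Manatee’ (ISL) 0 of 9 passed with edgeR’s quasi-likelihood test, where 8.28% of all genes did, and 3 had an unadjusted p under 0.05. With DESeq2 1 of the 9, PYL9, passed, where 16.7% of all genes did.

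Last, the described genes whose pattern over the 9 libraries was nearest to that of 4 members were found by the root mean square (RMS) difference of log2 CPM, each gene centred on its own mean. This is a measure of likeness over 3 genotypes of 3 libraries and carries no test. Nearest to NAC83 were a disease resistance gene of the TIR-NBS-LRR class (Lsat_1_v5_gn_1_93741, RMS 0.27), a gene annotated as jasmonate-induced oxygenase 2 (Lsat_1_v5_gn_2_124860, RMS 0.30) and a calmodulin-binding protein gene (Lsat_1_v5_gn_1_26140, RMS 0.33), against a median of 1.66 over 3731 genes. The first of these averaged 6.26, 27.2 and 116.3 CPM in 60184 (SSL), ‘Manatee’ (ISL) and ‘Okeechobee’ (LSL).

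Nearest to the NAM gene were a phototropic-responsive NPH3 family gene (Lsat_1_v5_gn_9_13500, RMS 0.15), a CONSTANS-like gene (Lsat_1_v5_gn_2_86121, RMS 0.18) and a P-type cyclin gene (Lsat_1_v5_gn_3_43761, RMS 0.22), where the median was 1.24. The NPH3 family gene averaged 291.5, 146.1 and 76.0 CPM in the same order. Nearest to KIRA were a cytochrome P450 gene (Lsat_1_v5_gn_1_27281, RMS 0.10), a nodulin-like gene (Lsat_1_v5_gn_4_105160, RMS 0.11) and a chloride channel gene (Lsat_1_v5_gn_8_119601, RMS 0.12), with a median of 0.91.

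No described gene followed the unnumbered NAC gene as closely. Its nearest were a gene of unknown function with a DUF247 domain (Lsat_1_v5_gn_4_86141, RMS 0.95), a TIR-NBS-LRR gene (Lsat_1_v5_gn_8_48680, RMS 1.08) and an oxygenase gene (Lsat_1_v5_gn_3_122040, RMS 1.10), with a median of 3.43. These 3 averaged 19.5, 17.9 and 9.78 CPM in ‘Okeechobee’ (LSL) and at most 0.61 CPM in the other genotypes, so they shared with the unnumbered NAC gene a level near 0 outside ‘Okeechobee’ (LSL).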

How the data were processed

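Mature leaf RNA of 60184 (SSL), ‘Manatee’ (ISL) and ‘Okeechobee’ (LSL) was sequenced in 3 libraries each, grouped by the genotype in the labels. The authors trimmed the reads, mapped them with STAR to the v5 lettuce genome, removed PCR duplicates and counted uniquely mapped reads per gene with HTSeq and SAMtools; the use of strand in counting is not given in the sources used here. The authors deposited raw read counts per gene without normalization. Summary lines for reads outside genes, ambiguous or not unique made up 9.98% to 20.4% of each file and were left out. Total gene counts were 24108451 to 32840811 per library; their number limits the precision for genes with few reads.

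Counts were tested in R 4.3.3 with edgeR 4.0.16 (TMM, quasi-likelihood F test with robust dispersion) for each pair of genotypes, on genes that reached 10 counts in 3 or more of 6 libraries, with Benjamini-Hochberg adjustment over all of them. Levels are CPM over the 9 libraries, and log2 CPM used a prior count of 2. The study treats the libraries of a genotype as biological replicates. No library was a duplicate of another of its own genotype, and pairs across genotypes were not checked.

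The members and gene lists were chosen with earlier results of these data known. Further genes were named by rule: the 4 listed NAC genes with the smallest p in each comparison and a mean count of at least 100, NAC genes with id numbers within 100 of each other, the study’s senescence genes, and the 3 described genes of nearest pattern. None of the 38910 v5 identifiers matched the RefSeq gene table, so names come from the study’s tables, and coordinates, promoters and proteins were not used here. Alternatives were DESeq2 1.42.0, scaling by its size factors, by the upper quartile or by library size alone, a filter at 1 CPM or none, all 9 libraries in 1 model, a replicate block, each library left out, and thresholds modelled on the study’s, with a mean count in place of its TPM limit. On simulated counts, the share of genes with an absolute log2 fold change of 1 that was called was 37% for ‘Okeechobee’ (LSL) against 60184 (SSL), 51% for ‘Manatee’ (ISL) against 60184 (SSL) and 16% for ‘Okeechobee’ (LSL) against ‘Manatee’ (ISL). At a log2 fold change of 2 it was 100%, 92% and 89%. The simulation changed only 100 genes at each of these sizes, all with a mean count of at least 100. Far more genes were called in the data, and the adjusted threshold depends on how many genes differ. These shares therefore do not carry over to the tests above. Figures were drawn with matplotlib 3.10.9.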

Additional observations from a re-analysis of the deposited data

How the results depend on the processing

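With each library left out in turn, the NAC genes called numbered 10 to 13 for ‘Okeechobee’ (LSL) against 60184 (SSL), 6 to 14 for ‘Manatee’ (ISL) against 60184 (SSL) and 3 to 5 for ‘Okeechobee’ (LSL) against ‘Manatee’ (ISL), and all genes called 4073 to 6858, 1232 to 4381 and 430 to 2152. The lowest counts of all genes came without 60184 (SSL) replicate 2 in the first 2 comparisons and without ‘Manatee’ (ISL) replicate 3 in the last; the cause was not tested. With thresholds modelled on the study’s (log2 fold changes of 2 or more in either direction, and a mean count of 100 or more in place of its TPM limit) the NAC counts were 7, 3 and 3 and all genes 1025, 718 and 408, by construction. For ‘Okeechobee’ (LSL) against ‘Manatee’ (ISL), DESeq2 called 8 NAC genes and 3654 in all, and 1 model of all 9 libraries called 7 and 3129; the cause was not tested. Samples with the same replicate number showed no clear shared deviation, with correlations of -0.11 to 0.10, -0.21 to 0.007 and -0.30 to 0.28. ‘Manatee’ (ISL) replicate 2 and ‘Okeechobee’ (LSL) replicate 1, which differ in number, reached 0.50. With 3 libraries per genotype, such correlations cannot exclude a pairing of libraries. With a replicate block the NAC genes called were 14, 11 and 2 and all genes 5886, 2320 and 596. With the block, KIRA, NAC17 and Lsat_1_v5_gn_2_103381 did not pass in ‘Manatee’ (ISL) against 60184 (SSL) (adjusted p = 0.071, 0.073 and 0.056, edgeR), nor Lsat_1_v5_gn_6_56420 and Lsat_1_v5_gn_6_56440 in ‘Okeechobee’ (LSL) against ‘Manatee’ (ISL) (adjusted p = 0.073 and 0.072, edgeR). Of 527 values of named genes under the other alternatives and the block, 504 kept direction and side of the threshold, 15 newly passed and 8 no longer passed. No call changed sign. Values that did not pass changed sign with 1 library left out for NAC90 (-0.15 to 0.85) and Lsat_1_v5_gn_5_165541 (-0.26 to 0.72) in ‘Okeechobee’ (LSL) against ‘Manatee’ (ISL), and there also for CRF5 (-0.55 to 0.14), ELF3 (-0.13 to 0.0083) and PRR5 (-0.46 to 0.13). CRF5 also did so against 60184 (SSL), with -0.59 to 0.11 in ‘Okeechobee’ (LSL) and -0.32 to 0.19 in ‘Manatee’ (ISL). Depth limits genes with few reads, such as the unnumbered NAC gene with 27 and 78 reads in all in 60184 (SSL) and ‘Manatee’ (ISL).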
